A study of Mus musculus with 8 samples.

Results

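Laminin chains and the collagen chains outside type IV were followed in Lewis lung carcinoma (LLC) cells, a mouse lung tumor line, with and without the oxygen-sensing hydroxylase FIH. Members were all protein-coding genes of the count table whose symbol names a laminin alpha, beta or gamma chain or a collagen chain, with the 6 type IV collagen genes left out. The rule took 49 of 53700 genes in the table, of which 21899 were protein coding, and it used no measured value. The 49 were 38 collagen chains and 11 laminin chains. A mean of 10 or more raw read counts over the 8 libraries was reached by 22 members, 17 of them collagens and 5 laminins. The filter on low counts let through those 22 and also Col14a1, Col20a1 and Lama3, so 25 members were tested, and 9 of the 24 untested members had no read in any library.

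The 8 RNA-seq libraries formed 4 groups of 2. WT LLC cells and FIH-KO LLC cells were each kept for 16 hours in normoxia (21% oxygen) or in hypoxia (1% oxygen). FIH-KO cells carried a CRISPR edit from a guide against exon 2 of Hif1an, the gene for FIH, and were derived by single-cell dilution. The number of clones sequenced was not given in the sources used here, so a difference between FIH-KO and WT cannot be told apart from a difference between clones. Nothing in the labels says whether the 2 libraries of a group came from separate cultures, and p-values therefore measure the spread between these libraries, which may be technical. Total counts per library ran from 14519731 to 18177016. Hif1an itself had a mean of 83.4 ± 1.62 CPM (counts per 1000000 counts of scaled library size, SD, n = 2) in WT normoxia and 36.2 ± 2.05 in FIH-KO normoxia, and 87.1 ± 4.34 in WT hypoxia and 48.3 ± 3.89 in FIH-KO hypoxia. Among markers of other cell types, leukocyte genes summed to between 2.70 and 7.25 CPM and endothelial genes to between 0.238 and 2.41 CPM per library. The fibroblast list of 6 genes had 3 with a mean of 10 or more counts, with Thy1 and Fap at 0 in every library, and summed to between 8.06 and 65.0 CPM. The epithelial keratins Krt8 and Krt18 were present and Epcam was at 0 throughout. The 5 epithelial genes summed to 326 to 352 CPM in WT normoxia and 436 to 538 in FIH-KO normoxia, and to 226 to 283 in WT hypoxia and 334 to 447 in FIH-KO hypoxia, so at each oxygen level both FIH-KO libraries lay above both WT libraries. Their part in the differences given here was not tested. In bulk RNA, fewer cells of a type and less RNA per cell cannot be told apart.

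Laminins are cross-shaped glycoproteins built from one alpha, one beta and one gamma chain, and they form the first sheet of a basement membrane, to which cells bind through integrins and dystroglycan. Collagens are triple-helical matrix proteins. Fibril-forming collagens such as types I, II, III, V and XI make banded fibers, FACIT collagens such as types IX, XII and XVI sit on the fiber surface, type VI makes beaded microfibrils around cells, type VII anchors epithelium to stroma, type VIII makes short-chain networks, and type XVIII lies in basement membranes and carries endostatin at its end. In cells, hypoxia-inducible factors (HIFs) are held down by prolyl hydroxylases, which destine HIF-alpha for degradation, and by FIH, which hydroxylates an asparagine in HIF-alpha and so blocks coactivator binding.

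The expressed members were few and of uneven level. On the scale of CPM per kilobase of exon, with levels averaged over the 8 libraries, Col3a1 (ENSMUSG00000026043.19), the chain of type III collagen, ranked 161 of 11301 protein-coding genes with a mean of 10 or more counts. Lamb1 ranked 437, Lama5 551, Col5a1 591 and Col18a1 782. Col16a1, Lamc1 and Col6a1 followed at ranks 1203, 1204 and 1386. The other 14 members with a mean of 10 or more counts lay between rank 4696 (Lamb2) and rank 11255 (Col5a2). Collagen members together took between 0.147% and 0.363% of the counts of a library, and laminin members between 0.130% and 0.188%.

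**Figure D1:**
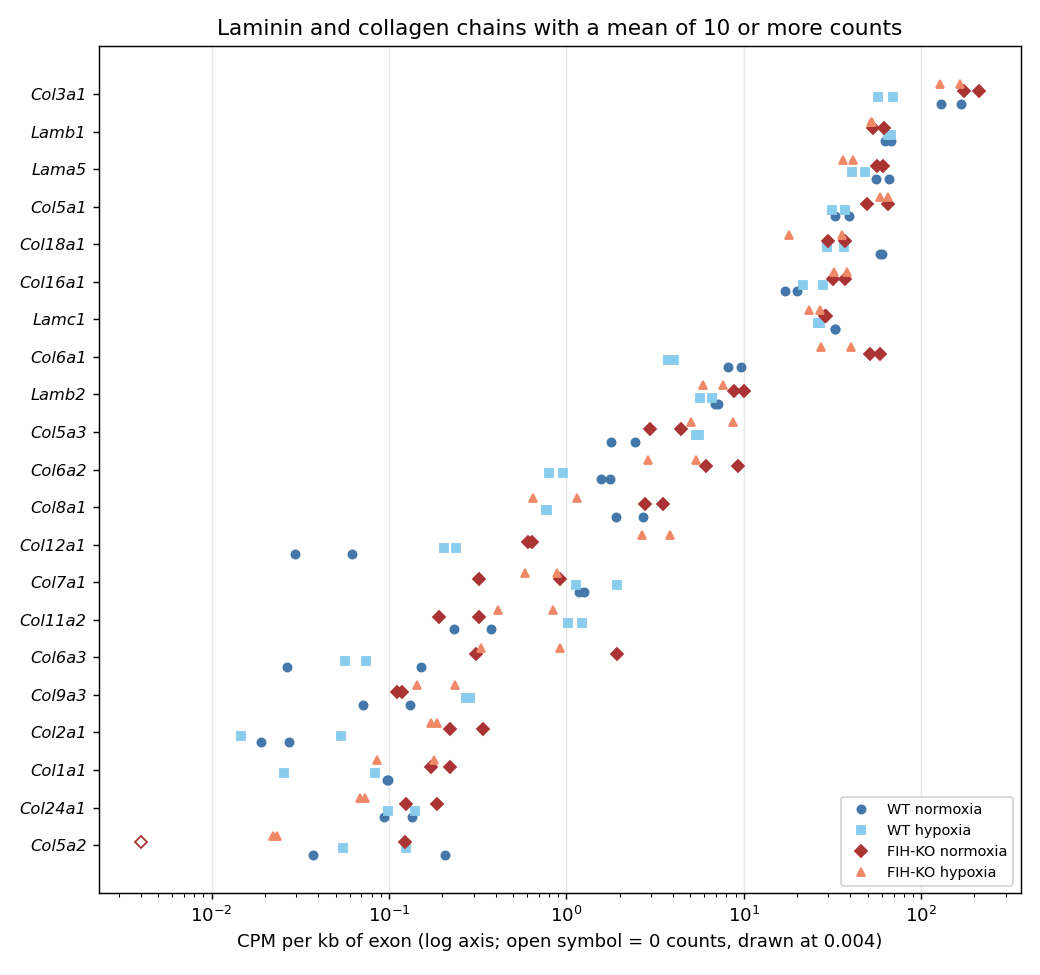
Level of members with a mean of 10 or more counts in each library, as CPM per kilobase of exon on a log axis, with a symbol and color for each of the 4 groups and 1 member not shown. An open symbol marks a library with 0 counts. Col3a1, Lamb1, Lama5 and Col5a1 stand at the top, and Col1a1, Col24a1 and Col5a2 at the bottom.

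Within each class of laminin chains, 1 gene held most of the level. Lama5 made up nearly all of the summed CPM per kilobase of the 5 alpha chains, with a lowest share of 99.6% in a library. Lamc1 held from 98.6% to 99.7% of the gamma chains. Lamb1 held from 85.8% to 92.3% of the beta chains and Lamb2 from 7.73% to 14.2%, so the chains present at most were those of the trimer that joins Lama5, Lamb1 and Lamc1. Lama4 had no read, and Lama1, Lama2 and Lamb3 had at most 5 reads in any library.

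Fibril-forming collagen RNA was mainly Col3a1, at 56.2% to 79.9% of the class per length, with Col5a1 at 18.6% to 36.7%. Type I collagen, the main collagen of fibroblasts, was close to the limit of detection. Col1a1 had 10 and 11 counts in WT normoxia, 19 and 26 in FIH-KO normoxia, 3 and 8 in WT hypoxia, and 9 and 18 in FIH-KO hypoxia. Col1a2, its partner chain, had at most 10 counts in a library and was not tested. Col5a2, which pairs with Col5a1 in type V collagen, had between 0 and 36 counts, with the libraries of a group far apart in normoxia (36 and 7 in WT, 23 and 0 in FIH-KO). Col5a2 lies 16713 bases from Col3a1 on chromosome 1, on the other strand, with no protein-coding gene between them. In type VI collagen, Col6a1 held 79.9% to 89.5%, Col6a2 9.39% to 18.7% and Col6a3 0.273% to 2.77% of the class per length, while Col6a4, Col6a5 and Col6a6 had no read.

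Outside the tested members, reads were sparse. The 9 genes without a read were Col10a1, Col13a1, Col19a1, Col25a1, Col6a4, Col6a5, Col6a6, Col9a1 and Lama4. A count of 0 in a library allows up to 3 counts, counting error only. Another 6 (Col11a1, Col15a1, Col26a1, Col8a2, Col9a2 and Lamb3) had at most 1 read in a library. The remaining 9 untested members (Col17a1, Col1a2, Col22a1, Col23a1, Col27a1, Col28a1, Lama1, Lama2 and Lamc3) reached at most 14 counts, in Col22a1. All 4 transmembrane collagens, Col13a1, Col17a1, Col23a1 and Col25a1, were among the untested.

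Because the rule used no measured value, each comparison could be tested. The first question was which chains differed between FIH-KO and WT cells at the same oxygen. In normoxia, edgeR's quasi-likelihood test, fitted over 13933 genes with Benjamini-Hochberg adjustment, called 10 of 25 tested members at an adjusted p under 0.05, 9 higher and 1 lower in FIH-KO, where 28.2% of all tested genes were called, 15.2% higher and 13.0% lower. In hypoxia it called 9 of 25, 8 higher and 1 lower, against 28.0% of all genes, 14.1% higher and 13.9% lower. Over the tested members the median difference was 0.45 in normoxia and 0.13 in hypoxia on the log2 scale, beside -0.00 and -0.03 over all tested genes. These medians include Col2a1 and Col14a1, which reached the CPM asked for by the filter on low counts in FIH-KO libraries only. No conclusion is therefore drawn from the medians. Higher in FIH-KO under both oxygen conditions were 7 members (Col12a1, Col16a1, Col2a1, Col5a1, Col6a1, Col6a2 and Col6a3), which is 7 of the 9 that were higher in normoxia and 7 of the 8 that were higher in hypoxia. No member was lower in both. The share of all tested genes higher in both was not counted, so the 7 has no background beside it. Since Col2a1 reached that CPM in FIH-KO libraries only, it could be tested only because it was high there. It stands among the 7, among the 10 called in normoxia and among the 9 called in hypoxia, and adds nothing to any of these counts or their comparison with all genes. Leaving out replicate 1 of WT normoxia lowered the normoxia count, and leaving out replicate 2 of WT hypoxia lowered the hypoxia count. Calls over all genes in the same comparison fell in these fits too.

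**Figure D2:**
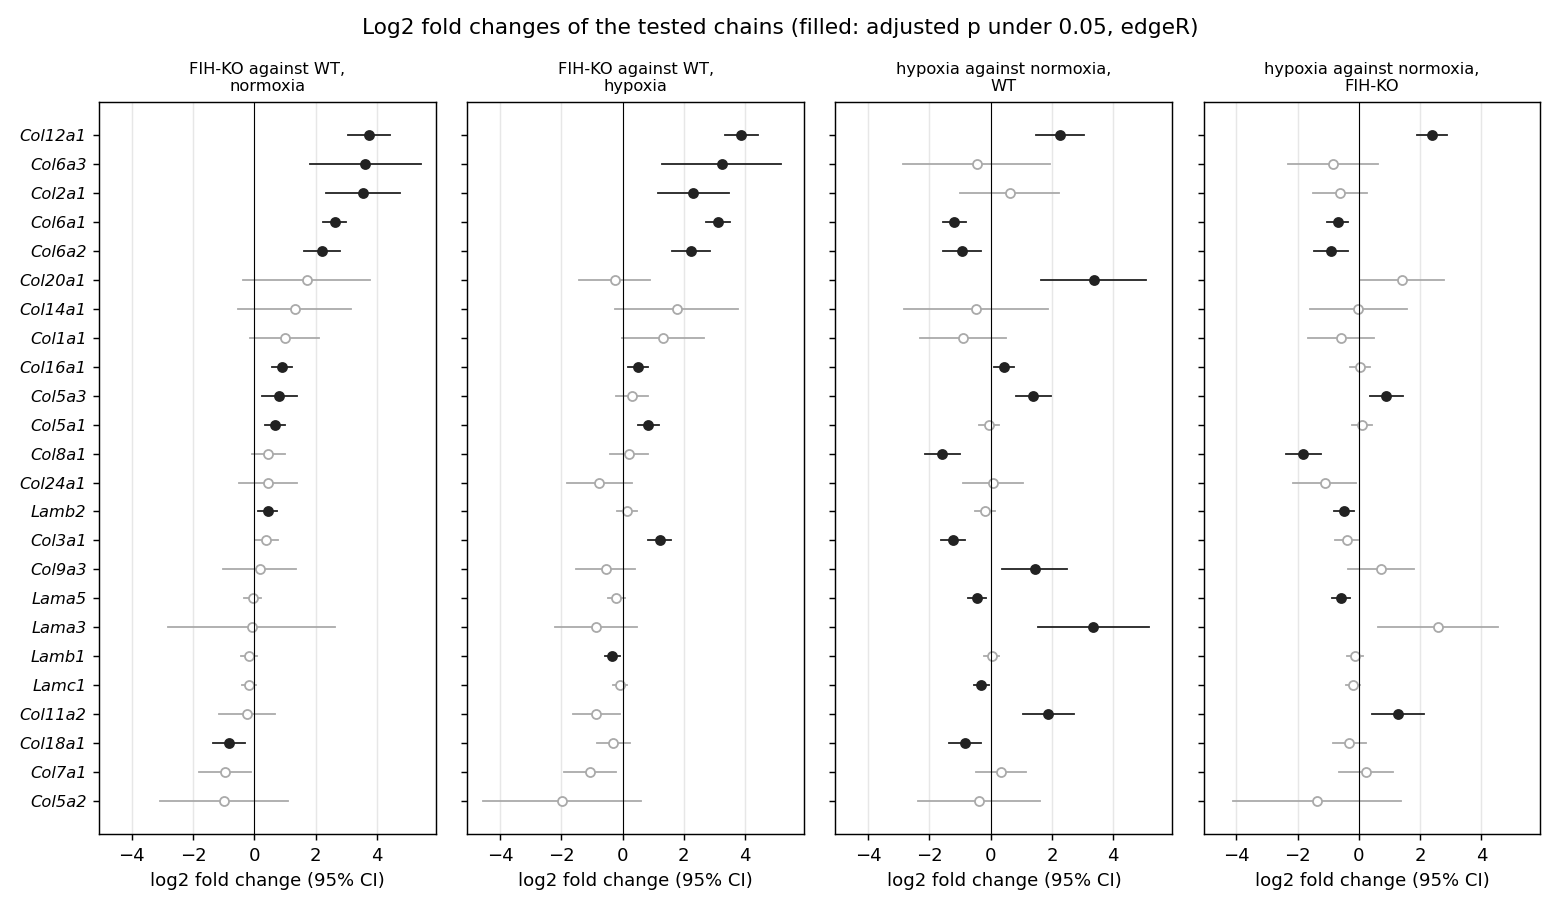
Log2 fold change (edgeR, with its 95% interval) of the tested members, 1 not shown, in the 4 comparisons, filled where the adjusted p is under 0.05: FIH-KO against WT in normoxia and in hypoxia, and the change with hypoxia in each genotype. Collagen VI chains and Col12a1 lie to the right in both comparisons of FIH-KO with WT, and Col8a1 lies to the left in both comparisons of hypoxia with normoxia. Col2a1, Lama3, Col20a1 and Col9a3 passed the filter on low counts only through the groups where they were high, so their filled points are not used.

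All 3 expressed chains of type VI collagen, which surrounds cells with microfibrils and binds type IV collagen at basement membranes, were higher in FIH-KO. Col6a1 (ENSMUSG00000001119.8, GRCm39 chromosome 10, 76543440 to 76562283, minus strand) had 741 and 954 counts in WT normoxia, 5039 and 6114 in FIH-KO normoxia, 425 and 322 in WT hypoxia, and 2570 and 3629 in FIH-KO hypoxia. Every FIH-KO library lay above every WT library, and within each genotype both hypoxia libraries lay below both normoxia libraries. Mean CPM of Col6a1 was 52.1 ± 6.29 in WT normoxia against 321 ± 29.8 in FIH-KO normoxia, a log2 fold change of 2.62 (SE 0.17, edgeR adjusted p = 1.9e-06). In hypoxia it was 22.9 ± 1.30 against 198 ± 53.5 CPM, a log2 fold change of 3.11 (SE 0.18, adjusted p = 1.4e-06). Col6a2, the neighbouring gene 83890 bases away on the same strand with no protein-coding gene between, had 270 and 327 counts in WT normoxia, 1131 and 1835 in FIH-KO normoxia, 187 and 129 in WT hypoxia, and 507 and 911 in FIH-KO hypoxia. Its order of groups was that of Col6a1, with log2 fold changes of 2.21 (SE 0.27, adjusted p = 0.00014) in normoxia and 2.23 (SE 0.28, adjusted p = 0.0002) in hypoxia. The median gene of chromosome 10 was 0.19 higher in FIH-KO in normoxia and 0.14 higher in hypoxia on the same log2 scale.

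Col6a3, the longest chain of type VI collagen, lies on chromosome 1 (90693645 to 90771780, minus strand). Its counts were 5 and 31 in WT normoxia, 63 and 416 in FIH-KO normoxia, 16 and 10 in WT hypoxia, and 64 and 171 in FIH-KO hypoxia. FIH-KO libraries lay above WT libraries throughout, with a 6.21-fold gap in CPM between the 2 FIH-KO normoxia libraries. The log2 fold changes were 3.62 (SE 0.83, edgeR adjusted p = 0.0069) in normoxia and 3.23 (SE 0.90, adjusted p = 0.018) in hypoxia. The normoxia call was lost without replicate 2 of FIH-KO normoxia (1.74, adjusted p = 0.11) or without replicate 1 of WT normoxia (2.85, adjusted p = 0.075). The hypoxia call was lost without replicate 2 of FIH-KO hypoxia (2.32, adjusted p = 0.12) and without either WT hypoxia library (3.49 and 3.07, adjusted p = 0.10 and 0.11). Acta2, a smooth muscle and myofibroblast actin on the fibroblast list, had 68 and 41 counts in WT normoxia, 201 and 824 in FIH-KO normoxia, 4 and 7 in WT hypoxia and 15 and 69 in FIH-KO hypoxia, so its higher FIH-KO library was that of Col6a3 in both oxygen conditions. Pdgfra, a growth factor receptor of fibroblasts, did not share that order, with 427 and 424 counts in WT normoxia, 285 and 311 in FIH-KO normoxia, 264 and 332 in WT hypoxia and 111 and 208 in FIH-KO hypoxia. Its relative Pdgfrb had 33 and 8, 22 and 27, 26 and 7, and 3 and 26 counts in the same order of groups, and Postn had at most 1 read in a library. The summed fibroblast list per library was 28.0 to 33.9 CPM in WT normoxia, 30.2 to 65.0 in FIH-KO normoxia, 16.5 to 23.6 in WT hypoxia and 8.06 to 19.8 in FIH-KO hypoxia. In hypoxia the list was therefore not higher in FIH-KO. The part of such cells in the Col6a3 result was not tested.

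Col12a1 (ENSMUSG00000032332.18, GRCm39 chromosome 9, 79506268 to 79626135, minus strand), a FACIT chain that bridges type I fibers to other matrix, had the largest fitted difference of any member between FIH-KO and WT, and was higher in hypoxia as well. It had 7 and 16 counts in WT normoxia, 156 and 175 in FIH-KO normoxia, 65 and 46 in WT hypoxia, and 946 and 627 in FIH-KO hypoxia. The 4 groups did not overlap, and mean CPM ran from 0.699 ± 0.352 in WT normoxia through 3.39 ± 0.356 in WT hypoxia and 9.54 ± 0.359 in FIH-KO normoxia to 49.9 ± 12.9 in FIH-KO hypoxia. FIH-KO exceeded WT by a log2 fold change of 3.74 (SE 0.32, edgeR adjusted p = 1.3e-05) in normoxia and 3.87 (SE 0.25, adjusted p = 1.6e-06) in hypoxia. Hypoxia exceeded normoxia by 2.25 (SE 0.36, adjusted p = 0.00073) in WT and 2.39 (SE 0.22, adjusted p = 3.4e-05) in FIH-KO. These comparisons share libraries (WT normoxia, for example, is the control of both FIH-KO in normoxia and hypoxia in WT), so they are not independent of one another. Within the FACIT class, the share of Col12a1 per length ran from 0.170% to 9.01% over the libraries.

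Col16a1, another FACIT chain and the main one here with 89.6% to 98.9% of the class, moved less. It had 1927 and 2437 counts in WT normoxia and 4523 and 4131 in FIH-KO normoxia, a log2 fold change of 0.90 (SE 0.15, edgeR adjusted p = 0.00099). In hypoxia it had 3626 and 2303 counts in WT and 4446 and 3589 in FIH-KO, a log2 fold change of 0.50 (SE 0.15, adjusted p = 0.024). The hypoxia difference lost its call without replicate 1 of FIH-KO hypoxia (0.42, adjusted p = 0.076) and without replicate 2 of WT hypoxia (0.33, adjusted p = 0.21).

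Among fibril-forming chains, Col5a1 (GRCm39 chromosome 2, 27776397 to 27929526, plus strand), which sets the diameter of collagen fibers, rose in FIH-KO at both oxygen levels. It had 4442 and 5751 counts in WT normoxia, 7264 and 10160 in FIH-KO normoxia, 5817 and 4006 in WT hypoxia, and 9072 and 7826 in FIH-KO hypoxia. All 4 FIH-KO libraries were above all 4 WT libraries, and the oxygen groups within a genotype were close. The log2 fold changes of FIH-KO against WT were 0.68 (SE 0.15, edgeR adjusted p = 0.0061) in normoxia and 0.84 (SE 0.15, adjusted p = 0.0018) in hypoxia. The normoxia call for Col5a1 was lost without replicate 2 of FIH-KO normoxia (0.44, adjusted p = 0.065) or replicate 1 of WT normoxia (0.53, adjusted p = 0.11).

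Col2a1, the chain of cartilage collagen, was a low gene with a large difference. It had 4 and 3 counts in WT normoxia, 53 and 37 in FIH-KO normoxia, 9 and 2 in WT hypoxia, and 26 and 27 in FIH-KO hypoxia, so WT levels stood close to the floor of 3 counts. All 4 FIH-KO libraries lay above all 4 WT libraries. Because Col2a1 passed the filter on low counts only through its FIH-KO libraries, its difference is given here by these counts and its test is not used.

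Col3a1 (GRCm39 chromosome 1, 45350698 to 45395840, plus strand) was the collagen with the highest level. It had 20622 and 29071 counts in WT normoxia, 36468 and 32258 in FIH-KO normoxia, 10491 and 10461 in WT hypoxia, and 21141 and 26220 in FIH-KO hypoxia. WT hypoxia stood below the other 3 groups. In hypoxia FIH-KO had 1514 ± 273 CPM against 651 ± 89.2 in WT, a log2 fold change of 1.22 (SE 0.18, edgeR adjusted p = 0.00047). In normoxia the difference did not pass (1988 ± 259 against 1524 ± 281 CPM, log2 fold change 0.38, SE 0.17, adjusted p = 0.12). Hypoxia against normoxia gave Col3a1 a log2 fold change of -1.23 (SE 0.18, adjusted p = 0.00036) in WT, and in FIH-KO the value was -0.39 (SE 0.17, adjusted p = 0.14), which passed without replicate 2 of FIH-KO hypoxia (-0.60, adjusted p = 0.038). The test of that difference, the interaction of genotype and oxygen, gave 0.83 (SE 0.24, unadjusted p = 0.0051) and an edgeR adjusted p of 0.50, so it was not called.

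**Figure D3:**
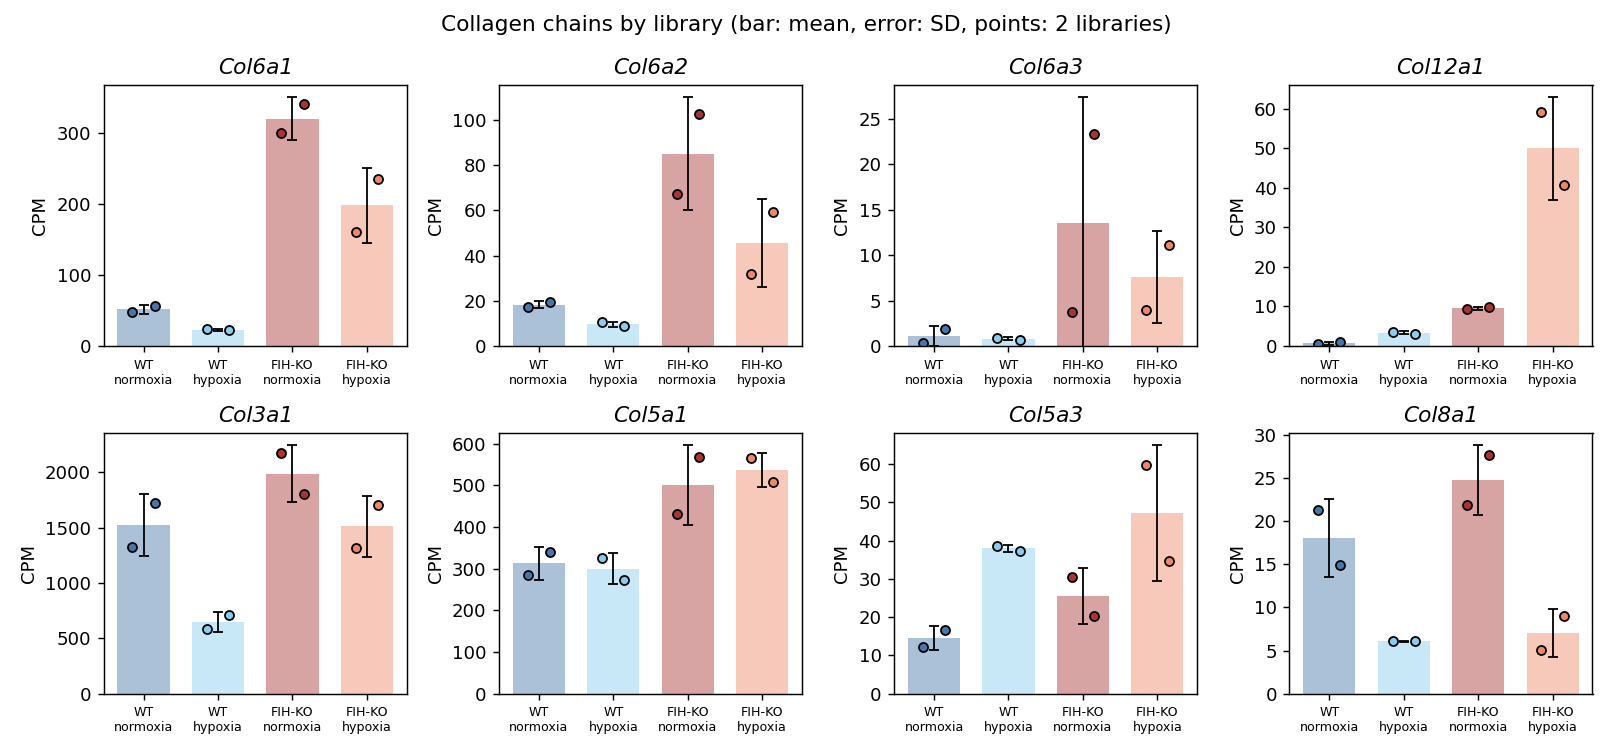
CPM of collagen chains in the 4 groups. Bars are means of 2 libraries, error bars the SD, and points the libraries. Col6a1 has all FIH-KO points above all WT points, and the FIH-KO normoxia points of Col6a3 lie far apart.

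Besides Col3a1 and the laminins, Col18a1 and Col5a3 were called at 1 of the 2 oxygen levels. Col18a1, the endostatin-bearing collagen of basement membranes, was lower in FIH-KO in normoxia, with 6425 and 7226 counts in WT and 4409 and 3751 in FIH-KO (log2 fold change -0.83, SE 0.24, edgeR adjusted p = 0.023). That call was lost without any 1 of the 4 libraries compared, with values from -1.02 to -0.71. In hypoxia Col18a1 had 4644 and 3055 counts in WT and 4071 and 1947 in FIH-KO, a wide spread within both groups (log2 fold change -0.30, SE 0.24, adjusted p = 0.39). The value was -0.85 (adjusted p = 0.0028) without replicate 1 of FIH-KO hypoxia and 0.12 (adjusted p = 0.63) if replicate 2 of that group was left out. Col5a3, a minor chain of type V collagen, had 191 and 282 counts in WT normoxia and 514 and 363 in FIH-KO normoxia (0.81, SE 0.26, adjusted p = 0.036). It lost that call without replicate 1 of FIH-KO normoxia (0.46, adjusted p = 0.33) or without either WT normoxia library (0.58 and 1.03, adjusted p = 0.27 and 0.058), and also without either WT hypoxia library (0.78 and 0.81, adjusted p = 0.060 and 0.055). In hypoxia the Col5a3 difference was 0.31 (SE 0.25, adjusted p = 0.38), with 0.66 without replicate 2 of FIH-KO hypoxia (adjusted p = 0.046) and -0.092 if replicate 1 of that group was left out (adjusted p = 0.81). Whether the difference itself changed with oxygen was tested by the interaction, which was not called for either gene.

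The main laminin chains differed little between FIH-KO and WT. Lama5 (GRCm39 chromosome 2, 179818166 to 179867712, minus strand), the alpha chain of most adult basement membranes, had 9902 and 12772 counts in WT normoxia, 10791 and 12454 in FIH-KO normoxia, 8358 and 8102 in WT hypoxia, and 7544 and 6424 in FIH-KO hypoxia. In CPM, the genotypes overlapped in normoxia and also in hypoxia. Its log2 fold change in FIH-KO was -0.06 in normoxia (95% interval -0.34 to 0.23) and -0.20 in hypoxia (95% interval -0.49 to 0.09), and neither passed the test. Lamc1, the common gamma chain, had 5749 and 6289 counts in WT normoxia, 5455 and 5888 in FIH-KO normoxia, 5314 and 4447 in WT hypoxia, and 4897 and 4070 in FIH-KO hypoxia. Its log2 fold change in FIH-KO was -0.18 in normoxia (95% interval -0.42 to 0.05) and -0.08 in hypoxia (95% interval -0.31 to 0.16). Lamb1, the common beta chain, had 10514 and 12196 counts in WT normoxia, 9643 and 11823 in FIH-KO normoxia, 12972 and 10286 in WT hypoxia, and 9010 and 8777 in FIH-KO hypoxia. Its value was -0.18 in normoxia (95% interval -0.43 to 0.07). In hypoxia Lamb1 was lower in FIH-KO, at 567 ± 6.03 CPM against 715 ± 17.6 in WT, a log2 fold change of -0.33 (SE 0.11, edgeR adjusted p = 0.047). Lamb2, the beta chain of synapses and kidney glomeruli, had 653 and 733 counts in WT normoxia, 906 and 1093 in FIH-KO normoxia, 617 and 593 in WT hypoxia, and 574 and 714 in FIH-KO hypoxia. It was higher in FIH-KO normoxia at 57.6 ± 5.12 against 42.7 ± 1.03 CPM (0.43, SE 0.15, adjusted p = 0.046). Both calls stood close to the threshold. The Lamb1 call was lost without any 1 of the 8 libraries, with values from -0.35 to -0.27. The Lamb2 call was lost without any 1 of 6 libraries (all but those of FIH-KO hypoxia), with values from 0.31 to 0.50.

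**Figure D4:**
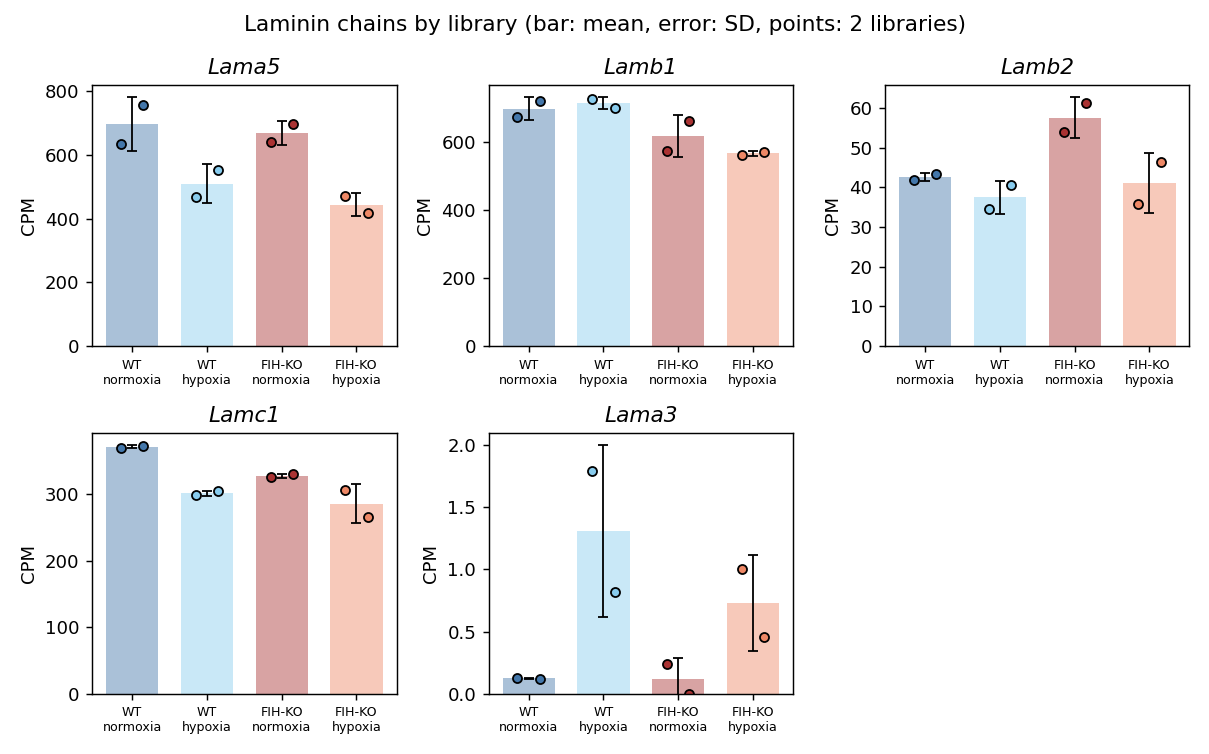
CPM of 5 laminin chains in the 4 groups. Bars are means of 2 libraries, error bars the SD, and points the libraries. Lama5 is lower in hypoxia in both genotypes, and Lama3 stays under 2 CPM in every library.

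The second question was what 16 hours of hypoxia did in each genotype. In WT cells edgeR called 15 of 25 members, 8 higher and 7 lower in hypoxia, against 32.4% of all tested genes, 16.9% higher and 15.5% lower. In FIH-KO cells it called 8 of 25, 3 higher and 5 lower, against 16.8% of all genes, 8.84% higher and 8.0% lower. Over the tested members the median log2 change was -0.06 in WT and -0.20 in FIH-KO, beside -0.00 and -0.03 over all tested genes. These medians include Lama3, Col20a1 and Col9a3, which could be tested only through their hypoxia libraries, so no conclusion is drawn from the medians. Col5a3, Col11a2 and Col12a1 were higher in hypoxia in both genotypes, which is 3 of the 8 higher in WT and all 3 in FIH-KO. Col6a1, Col6a2, Col8a1 and Lama5 were lower in both, which is 4 of the 7 lower in WT and 4 of the 5 in FIH-KO. The shares of all tested genes higher or lower in both genotypes were not counted, so these 3 and 4 have no background beside them. Of the 8 higher in WT, Lama3, Col20a1 and Col9a3 passed the filter on low counts only through hypoxia libraries. They add nothing to that count, to the 15 called in WT or to their comparison with all genes. The WT count of 15 fell without replicate 1 of WT hypoxia or either WT normoxia library. The FIH-KO count of 8 fell without replicate 1 of FIH-KO hypoxia or replicate 2 of FIH-KO normoxia. It also fell if replicate 1 of WT hypoxia or replicate 2 of WT normoxia was left out. Calls over all genes in the same comparison fell in each of these fits too.

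For the 3 chains higher in hypoxia in both genotypes and for Col8a1, which fell in both, the 250 bases before the start of the canonical transcript were read from the GRCm39 genome with GENCODE gene models. HIFs bind the core RCGTG, so the letters ACGTG and GCGTG were searched on both strands, and a match is in capitals (in its reverse form, CACGT or CACGC, where it lies on the other strand). Each sequence is written 5′ to 3′ on the strand of the gene. The windows are chr9:20726419-20726668 (minus strand) for Col5a3, chr17:34257866-34258115 (plus strand) for Col11a2, chr9:79626136-79626385 (minus strand) for Col12a1 and chr16:57575101-57575350 (minus strand) for Col8a1.
Col5a3: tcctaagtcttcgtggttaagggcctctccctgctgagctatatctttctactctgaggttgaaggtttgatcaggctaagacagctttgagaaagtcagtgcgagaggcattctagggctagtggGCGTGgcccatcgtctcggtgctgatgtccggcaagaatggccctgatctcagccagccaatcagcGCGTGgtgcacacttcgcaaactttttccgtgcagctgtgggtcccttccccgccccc
Col11a2: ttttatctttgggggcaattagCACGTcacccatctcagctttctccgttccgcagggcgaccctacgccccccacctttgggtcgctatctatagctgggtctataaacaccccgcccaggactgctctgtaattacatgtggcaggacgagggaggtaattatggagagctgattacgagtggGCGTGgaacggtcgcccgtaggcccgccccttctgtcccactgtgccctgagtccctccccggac
Col12a1: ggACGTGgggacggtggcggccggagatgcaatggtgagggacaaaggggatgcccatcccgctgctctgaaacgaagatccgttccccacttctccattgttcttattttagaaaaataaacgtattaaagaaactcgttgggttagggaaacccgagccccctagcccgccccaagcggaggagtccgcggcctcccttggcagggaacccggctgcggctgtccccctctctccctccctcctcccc
Col8a1: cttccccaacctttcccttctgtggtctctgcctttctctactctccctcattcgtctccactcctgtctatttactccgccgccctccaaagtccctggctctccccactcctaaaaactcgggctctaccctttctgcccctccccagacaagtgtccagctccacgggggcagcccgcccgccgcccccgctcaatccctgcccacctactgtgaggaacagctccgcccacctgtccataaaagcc
Col5a3 held 2 matches, Col11a2 2, Col12a1 1 and Col8a1 0. Of the others lower in both genotypes, Col6a1 held 1 match, and Col6a2 and Lama5 held 0. Such a match is common: 54.6% of 11300 protein-coding genes with a mean of 10 or more counts had at least 1 in a window of that length, and 11 of the 22 members at that level did. The matches describe these letters and are not evidence of binding.

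Col5a3 had 191 and 282 counts in WT normoxia and 690 and 546 in WT hypoxia, and 514 and 363 in FIH-KO normoxia and 956 and 532 in FIH-KO hypoxia. The log2 fold change in hypoxia was 1.39 (SE 0.26, edgeR adjusted p = 0.0019) in WT and 0.89 (SE 0.25, adjusted p = 0.03) in FIH-KO. The FIH-KO call was lost without replicate 1 of FIH-KO hypoxia (0.47, adjusted p = 0.21) or replicate 2 of FIH-KO normoxia (0.65, adjusted p = 0.18). Col11a2, a fibril-forming chain known from cartilage, had 27 and 47 counts in WT normoxia, 163 and 112 in WT hypoxia, 24 and 43 in FIH-KO normoxia, and 100 and 47 in FIH-KO hypoxia. Its log2 fold change was 1.89 (SE 0.38, adjusted p = 0.0028) in WT and 1.27 (SE 0.39, adjusted p = 0.044) in FIH-KO. In FIH-KO the lower hypoxia library of Col11a2 (3.06 CPM) was near the higher normoxia library (2.41 CPM), and the call was lost in 6 of the 8 fits that each left out 1 library, with values from 0.69 to 1.72. The 2 exceptions left out replicate 2 of FIH-KO hypoxia and replicate 1 of WT normoxia.

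Col8a1 (GRCm39 chromosome 16, 57444621 to 57575100, minus strand), a chain of the short-chain network collagen of vessel walls and corneal membranes, fell in hypoxia in both genotypes. It had 331 and 251 counts in WT normoxia and 108 and 89 in WT hypoxia, and 367 and 493 in FIH-KO normoxia and 81 and 138 in FIH-KO hypoxia. No hypoxia library reached any normoxia library. Mean CPM went from 18.1 ± 4.53 to 6.06 ± 0.0161 in WT, a log2 fold change of -1.57 (SE 0.27, edgeR adjusted p = 0.0011), and from 24.7 ± 4.06 to 7.02 ± 2.77 in FIH-KO, a log2 fold change of -1.82 (SE 0.26, adjusted p = 0.00081). Between FIH-KO and WT, Col8a1 gave 0.45 in normoxia and 0.21 in hypoxia, neither past the test.

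The collagen VI chains Col6a1 and Col6a2 were lower in hypoxia in both genotypes. Col6a1 fell by a log2 fold change of -1.18 (SE 0.18, edgeR adjusted p = 0.00047) in WT and -0.70 (SE 0.16, adjusted p = 0.013) in FIH-KO. The FIH-KO call for Col6a1 was lost without replicate 1 of FIH-KO hypoxia (-0.42, adjusted p = 0.079) or replicate 2 of FIH-KO normoxia (-0.57, adjusted p = 0.091). Col6a2 gave -0.92 (SE 0.29, adjusted p = 0.027) in WT and -0.90 (SE 0.25, adjusted p = 0.03) in FIH-KO. In WT the Col6a2 call was lost without any 1 of the 4 WT libraries, with values from -1.10 to -0.81. In FIH-KO it was lost without replicate 1 of FIH-KO hypoxia (-0.49), replicate 2 of FIH-KO normoxia (-0.54), replicate 1 of WT hypoxia or either WT normoxia library (all -0.88). Col6a3 gave -0.46 (SE 1.10) in WT and -0.84 (SE 0.67) in FIH-KO and passed in neither.

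Lama5 fell in hypoxia in both genotypes, by a log2 fold change of -0.45 (SE 0.13, edgeR adjusted p = 0.022) in WT and -0.59 (SE 0.13, adjusted p = 0.011) in FIH-KO. In CPM it went from 696 ± 85.0 to 511 ± 59.9 in WT and from 670 ± 38.6 to 445 ± 37.5 in FIH-KO. The WT call for Lama5 was lost without replicate 1 of WT hypoxia (-0.37, adjusted p = 0.14) or replicate 2 of WT normoxia (-0.36, adjusted p = 0.17), and the FIH-KO call without replicate 2 of FIH-KO normoxia (-0.51, adjusted p = 0.066). Lamc1 fell slightly in WT (-0.30, SE 0.11, adjusted p = 0.0497), a call lost without any 1 of the 4 WT libraries, with values from -0.35 to -0.32. Lamb2 was lower in hypoxia in FIH-KO (-0.48, SE 0.15, adjusted p = 0.042), a call lost in 7 of the 8 fits that each left out 1 library, with values from -0.55 to -0.28. The exception left out replicate 2 of FIH-KO hypoxia. Lamb1 gave a log2 fold change of 0.03 in WT (95% interval -0.22 to 0.28) and -0.12 in FIH-KO (95% interval -0.37 to 0.12).

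Lama3, the alpha chain of the epithelial anchoring laminin, was low in every library. Lama3 had 2 and 2 counts in WT normoxia and 32 and 12 in WT hypoxia. In FIH-KO, Lama3 had 4 and 0 counts in normoxia and 16 and 7 in hypoxia. Lama3 passed the filter on low counts only through hypoxia libraries, so its test is not used. Lamb3, a beta chain of that laminin, had at most 1 read in a library.

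Col20a1 and Col9a3 were also low and also passed that filter only through hypoxia libraries, so their tests are not used. Col20a1, a FACIT chain, had 2 and 1 counts in WT normoxia and 15 and 18 in WT hypoxia. Col9a3, a FACIT chain of cartilage, had 5 and 10 counts in WT normoxia and 23 and 18 in WT hypoxia. Among chains of higher level, Col16a1 was called higher in WT hypoxia at 0.43 (SE 0.15, edgeR adjusted p = 0.044), lost without replicate 1 of WT hypoxia (0.19), either WT normoxia library (0.28 and 0.50) or either FIH-KO normoxia library (both 0.39). Col18a1 was lower in WT hypoxia at 234 ± 36.6 against 420 ± 10.7 CPM (-0.84, SE 0.24, adjusted p = 0.02), lost without replicate 2 of WT hypoxia (-0.70) or either WT normoxia library (-0.91 and -0.86). In FIH-KO, Col18a1 gave -0.31 (SE 0.24, adjusted p = 0.43), with -0.87 without replicate 1 of FIH-KO hypoxia (adjusted p = 0.0056) and 0.10 if replicate 2 of that group was left out (adjusted p = 0.72).

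Whether hypoxia acted differently in FIH-KO and WT was tested by the interaction term. With edgeR it was called for 0 of 25 members and for 0.00% of all genes, with 1 member (Col3a1) and 925 of all genes at an unadjusted p under 0.05. DESeq2 called 0 members and 40 genes in all. A call in WT that was absent in FIH-KO is therefore not shown to be a difference between the genotypes.

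In all, 20 of the 25 tested members were called in at least 1 of the 4 comparisons and 3 (Col12a1, Col6a1 and Col6a2) in all 4, beside 55.0% of all tested genes in at least 1 and 3.50% in all 4. The 20 include Col2a1, Lama3, Col20a1 and Col9a3. These passed the filter on low counts only through the groups where they were high, so they add nothing to that count. The 5 called in none were Col14a1, Col1a1, Col24a1, Col5a2 and Col7a1. Col7a1, the anchoring fibril of epithelium, had 202 and 205 counts in WT normoxia and 56 and 170 in FIH-KO normoxia, and 355 and 172 in WT hypoxia and 97 and 141 in FIH-KO hypoxia. Its values in FIH-KO were -0.96 (SE 0.39, edgeR adjusted p = 0.087) in normoxia and -1.06 (SE 0.39, adjusted p = 0.058) in hypoxia. The normoxia difference of Col7a1 passed without replicate 2 of FIH-KO normoxia (-1.94, adjusted p = 0.0049), and the hypoxia difference without either FIH-KO normoxia library (both -1.02, adjusted p = 0.017 and 0.018). The libraries of a group stood apart for several chains. Of the 16 members with a mean of 50 or more counts, 5 differed over 2-fold between the libraries of some group (Col18a1, Col11a2, Col7a1, Col12a1 and Col6a3).

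Proteins that laminins and collagens work with were counted from 3 lists. Among 11 tested partners of laminin in the basement membrane, 4 were higher and 1 lower in FIH-KO normoxia, and 6 higher and 0 lower in FIH-KO hypoxia. In hypoxia against normoxia, 1 rose and 5 fell in WT, and 1 rose and 4 fell in FIH-KO. Of all tested genes, 28.2% and 28.0% were called between FIH-KO and WT in normoxia and in hypoxia, and 32.4% and 16.8% between hypoxia and normoxia in WT and in FIH-KO. In the same order, 15.2%, 14.1%, 16.9% and 8.84% were higher, and 13.0%, 13.9%, 15.5% and 8.0% lower. Nid1, the nidogen that links laminin to type IV collagen, was higher in FIH-KO by 0.43 (SE 0.12, edgeR adjusted p = 0.022) in normoxia and 0.93 (SE 0.13, adjusted p = 0.0003) in hypoxia. Fbln1 and Fbln2 are fibulins, which bind laminin and nidogen. Fbln1 was higher in FIH-KO by 1.01 (SE 0.15, adjusted p = 0.00064) in normoxia and 0.98 (SE 0.16, adjusted p = 0.001) in hypoxia. Fbln2 had 32 and 27 counts in WT normoxia and 231 and 433 in FIH-KO normoxia (3.38, SE 0.37, adjusted p = 6.4e-05). Ntn1, a laminin-related guidance protein, was lower in hypoxia in WT (-1.38, SE 0.16, adjusted p = 0.00011) and in FIH-KO (-0.77, SE 0.16, adjusted p = 0.0067), the latter lost without replicate 1 of FIH-KO normoxia (-0.64, adjusted p = 0.065). The normoxia count of 5 partners went to 3 without replicate 1 of FIH-KO normoxia, or to 2 if replicate 1 of WT normoxia was left out. The WT hypoxia count of 6 went to 3 without replicate 2 of WT hypoxia or replicate 2 of WT normoxia, and the FIH-KO hypoxia count of 5 to 3 without replicate 1 of FIH-KO hypoxia or either FIH-KO normoxia library.

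Among 16 tested genes of collagen secretion, trimming and fibril organisation, 7 were higher and 1 lower in FIH-KO normoxia, and 8 higher and 2 lower in FIH-KO hypoxia. In hypoxia against normoxia, 1 rose and 6 fell in each genotype. The shares of all genes called were 28.2% and 28.0% for FIH-KO against WT, and 32.4% (WT) and 16.8% (FIH-KO) for hypoxia. By direction, in the same order, 15.2%, 14.1%, 16.9% and 8.84% were higher, and 13.0%, 13.9%, 15.5% and 8.0% lower. Fn1, the fibronectin on which collagen fibers assemble, was the one that rose, by a log2 fold change of 1.17 (SE 0.16, edgeR adjusted p = 0.00031) in WT and 0.60 (SE 0.16, adjusted p = 0.026) in FIH-KO, and it was higher in FIH-KO normoxia by 1.68 (SE 0.17, adjusted p = 3.5e-05). Thbs2, a thrombospondin of fiber assembly, was higher in FIH-KO by 1.64 (SE 0.16, adjusted p = 3e-05) in normoxia and 1.89 (SE 0.16, adjusted p = 1.3e-05) in hypoxia. Bgn, a small proteoglycan that binds fibers, went the other way, with 308 and 219 counts in WT normoxia and 49 and 47 in FIH-KO normoxia (-2.56, SE 0.36, adjusted p = 0.00036). Tnxb, a tenascin that ties fibers together, had 64 and 45 counts in WT normoxia and 635 and 357 in FIH-KO normoxia (3.09, SE 0.38, adjusted p = 0.00017). Abi3bp, a collagen-binding matrix protein, had 2 and 2 counts in WT normoxia and 391 and 476 in FIH-KO normoxia. Abi3bp is counted above as higher in FIH-KO at both oxygen levels and as lower with hypoxia in FIH-KO. It was under the floor of 3 counts in WT normoxia and was known from earlier results when the list was written. It therefore adds nothing to the counts of this list. The normoxia count of 8 fell without replicate 1 of WT normoxia, and the count of 7 for hypoxia in WT without replicate 2 of WT hypoxia. The count of 7 for hypoxia in FIH-KO fell without replicate 1 of FIH-KO hypoxia or either FIH-KO normoxia library. Calls over all genes in the same comparison fell in each of these fits too.

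Among 9 tested receptors for laminin or collagen outside the integrins, 5 were higher and 0 lower in FIH-KO normoxia, and 6 higher and 1 lower in FIH-KO hypoxia. Hypoxia raised 4 and lowered 1 in WT, and raised 3 and lowered 2 in FIH-KO. Over all genes the called shares were, in the same 4 comparisons, 28.2%, 28.0%, 32.4% and 16.8%. Of these shares, 15.2%, 14.1%, 16.9% and 8.84% were higher, and 13.0%, 13.9%, 15.5% and 8.0% lower. Dag1 stands on this list and on that of laminin partners, and is counted in both. Ddr1, a collagen-binding receptor tyrosine kinase, had 562 and 680 counts in WT normoxia and 1741 and 1583 in FIH-KO normoxia (log2 fold change 1.33, SE 0.14, edgeR adjusted p = 4.7e-05). Its relative Ddr2 was higher in hypoxia by 1.05 (SE 0.12, adjusted p = 8.6e-05) in WT and 0.59 (SE 0.12, adjusted p = 0.006) in FIH-KO. Mrc2, the receptor that takes up collagen fragments, was lower in hypoxia by a log2 fold change of -0.98 (SE 0.14, adjusted p = 0.00036) in WT and -0.66 (SE 0.14, adjusted p = 0.0065) in FIH-KO, the latter lost without replicate 2 of FIH-KO normoxia (-0.55, adjusted p = 0.058). The normoxia count of 5 receptors fell when replicate 1 of the FIH-KO group was dropped, and also when replicate 1 of the WT group was. The WT hypoxia count of 5 fell without replicate 1 of WT normoxia, and the FIH-KO hypoxia count of 5 without replicate 2 of FIH-KO normoxia. Fewer of all tested genes were called in each of these fits too, so the falls are not read as a property of the receptors.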

How the data were processed

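Polyadenylated RNA of 8 libraries was sequenced paired-end with a stranded TruSeq mRNA kit. Per the study's methods and processing notes, the authors made the deposited raw read counts per gene with bcl2fastq, STAR on GRCm39 and HTSeq, without pooling replicates. Tool versions, annotation release, strand setting and treatment of multi-mapping reads were not given in the sources used here, and the notes also name DESeq2 and GRCm38. Reads of overlapping genes or near-identical copies may therefore be shared or lost.

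From those counts, genes were filtered with filterByExpr, scaled by TMM and fitted with edgeR 4.0.16 (quasi-likelihood, 1 model with 4 groups over all 8 libraries) in R 4.3.3. Each p was adjusted by the Benjamini-Hochberg method over 13933 genes and called under 0.05. The biological coefficient of variation was 11.7%. CPM are counts per 1000000 of TMM-scaled library size, and exon length and positions are from GENCODE models on GRCm39, where 49 of 49 members were found by gene ID. A limit of 3 counts covers counting error only.

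Every library value was given for called members with a mean of 50 or more counts, and of each partner list up to 4 called genes with the largest change in a comparison were named. Members and lists were chosen with earlier results of these data known. Alternatives were DESeq2 1.42.0, RLE and upper-quartile scaling, 2 other filters, the replicate number as a block, fits on 4 libraries, and leaving out each library in turn. The fits were tested on simulated data. The results of 1 member are counted in the totals and not reported here.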

Additional observations from a re-analysis of the deposited data

How the results depend on the processing

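Across all alternatives, 42 called member values were followed. Of these, 18 kept their call under every alternative that gave a value (5 of the 18 were not tested when at least 10 counts were asked for in every library), 24 lost it under at least 1, and 0 changed direction. The 42 include calls of Col2a1, Lama3, Col20a1 and Col9a3, whose tests are not used. Col2a1 in normoxia is among the 18 and among the 5, and the other calls of these genes are among the 24. They add nothing to these counts. With 1 library left out in turn, the number of members called ran from 5 to 10 for FIH-KO against WT in normoxia, from 5 to 9 in hypoxia, from 6 to 15 for hypoxia against normoxia in WT, from 2 to 10 in FIH-KO, and was 0 for the interaction. The number of all tested genes called also changed with the library left out, and these ranges are not set against it. The remaining library of a group was then assumed to vary like the other groups. Asking for at least 10 counts in every library left 14 members tested, of which 6 were called in normoxia and 5 in hypoxia between FIH-KO and WT, and 5 genes of collagen secretion, trimming and fibril organisation in normoxia. Of the 11648 genes tested under that filter, 3494 were called in normoxia and 3391 in hypoxia. Fitting only the 4 libraries compared left 3 members and 2 genes of that list called for hypoxia in FIH-KO, beside 1289 of 13115 genes. With no filter beyond 1 read, the interaction was called for 1 member, Col3a1 (0.85), and 2 genes of that list. It was then called for 143 of 25720 genes, and the cause was not tested.

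With 1 library left out, which also changed the number of all genes called, the partner lists ran as follows. Laminin partners called were 2 to 6 (FIH-KO against WT in normoxia), 5 to 7 (in hypoxia), 3 to 7 (hypoxia in WT) and 3 to 7 (hypoxia in FIH-KO). Genes of collagen secretion, trimming and fibril organisation were 5 to 8, 7 to 10, 4 to 8 and 2 to 7 in the same order. Receptors were 1 to 5, 5 to 6, 3 to 7 and 2 to 6.

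Values that changed sign were all uncalled. With 1 library left out, Lama5 for FIH-KO against WT in normoxia ran from -0.20 to 0.050 (without replicate 2 of WT normoxia), and Lamc1 in hypoxia from -0.14 to 0.029 (without replicate 2 of FIH-KO hypoxia). Without that same library Col18a1 reached 0.12 for FIH-KO against WT in hypoxia (lowest -0.85) and 0.10 for hypoxia in FIH-KO (lowest -0.87). Col5a3 for FIH-KO against WT in hypoxia ran from -0.092 (without replicate 1 of FIH-KO hypoxia) to 0.66. DESeq2 did not call Col18a1 in normoxia or in WT hypoxia, nor Col9a3 in WT hypoxia. Lamb1 in hypoxia was lost under both other scalings, both other filters and the fit on 4 libraries. Col7a1 in hypoxia passed with no filter, with the replicate block and on 4 libraries.

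The deviations of same-numbered libraries correlated from -0.06 to 0.22, with the highest value between WT hypoxia and FIH-KO hypoxia. The labels do not say whether same-numbered libraries shared a batch, and the main fit did not pair them. With a replicate block, members called were 10, 10, 14, 9 and 0 for the 5 tests, beside 4080, 4039, 4593, 2479 and 5 of 13933 genes. Lamc1 in WT hypoxia was then lost (edgeR adjusted p = 0.054), and Col7a1 in hypoxia was gained (adjusted p = 0.041). The interaction was not refitted on 4 libraries, since it needs all 8. Col2a1, Lama3, Col20a1 and Col9a3 could be tested only through the groups where they were high, so they add nothing to any count of members called in this section. Col14a1, which the main fit did not call, also reached the CPM asked for by the filter in FIH-KO libraries only.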
